A study of Mus musculus with 6 samples.

Results

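The genes described are 7 Wnt ligands (Wnt4, Wnt5a, Wnt5b, Wnt9a, Wnt10b, Wnt11 and Wnt16), the Wnt carrier Wls, the Wnt acyltransferase Porcn and the Wnt5a receptor Ror2. They are listed by symbol, were chosen with earlier results of these data known, and are 10 of the 23930 amplicons in the deposited table, each with a single row. The tissue was the shaft of the humerus, taken from mouse embryos at stage E16.5. There were 3 control libraries of genotype Stat3C/+, which the labels also call wild type, and 3 libraries of genotype Prrx1Cre; Stat3C/C, labelled Stat3 KO and called knockout here. All 6 libraries thus carry at least a single Stat3C allele, and the control genotype as labelled holds no Cre, so an effect of the driver itself cannot be told apart from loss of Stat3. Prrx1Cre is active in limb bud mesenchyme, the source of limb cartilage, bone and connective tissue, whereas blood, vessel and muscle cells come from other sources. The series set out to find genes expressed differently between these long bones.

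Wnt proteins are lipid-modified signals. In the endoplasmic reticulum the enzyme Porcn attaches a fatty acid to a conserved serine of the ligand, and the membrane protein Wls then carries the modified ligand to the cell surface. Outside the cell, ligands such as Wnt10b act mainly through Frizzled and LRP receptors and beta-catenin, whereas Wnt5a acts largely through Ror2 and the planar cell polarity machinery that orders chondrocytes into columns.

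The site that Porcn modifies is shown for the 7 ligands because it is the feature that ties each of them to Porcn and Wls. Each line holds 10 codons of the coding strand, 5′ to 3′, from the GENCODE M21 transcripts on GRCm38, with the serine codon in capitals.
Wnt4: tgcaagtgtcacggggtgTCGggctcctgc
Wnt5a: tgtaagtgtcatggagtgTCTggctcctgt
Wnt5b: tgcaaatgtcacggagtcTCCgggtcctgc
Wnt9a: tgcaaatgccatggtgtgTCTggctcctgc
Wnt10b: tgcaaatgccatggaacgTCAggcagctgc
Wnt11: tgtaaatgccatggggtgTCTggctcctgc
Wnt16: tgccgctgccacggagttTCCggctcctgt
Of the 30 bases, 15 were the same in all 7 ligands. Wnt9a and Wnt11 shared 28 of them, Wnt5a and its close relative Wnt5b shared 23, and Wnt10b and Wnt16 shared 19. The serine is encoded by codon 212 of Wnt4, 244 of Wnt5a, 236 of Wnt5b, 221 of Wnt9a, 253 of Wnt10b, 215 of Wnt11 and 226 of Wnt16. Each window lies within a single coding exon. On the plus strand these are chr4:137296339-137296368 for Wnt4, chr14:28522509-28522538 for Wnt5a, chr11:59330920-59330949 for Wnt9a, chr7:98850254-98850283 for Wnt11 and chr6:22297794-22297823 for Wnt16. On the minus strand they are chr6:119433800-119433829 for Wnt5b and chr15:98772878-98772907 for Wnt10b. Whether these windows overlap the stretches that were counted is unknown here.

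The libraries held 9126493 to 13376550 reads, recovered from the deposited RPM values (reads scaled to the library total). On the first principal component the controls lay between -20.6 and -14.0 and the knockouts between 14.7 and 20.2. The Stat3 amplicon gave 211, 201 and 211 RPM in the control libraries and 208, 201 and 170 RPM in the knockout libraries, a difference that did not pass (adjusted p = 0.380, limma). Whether this amplicon overlaps the part of Stat3 that Cre removes is unknown here, so its level does not check the labels. Bone genes were abundant, the bone sialoprotein gene Ibsp being at 4328 ± 319 RPM in the control and at 2097 ± 66.9 RPM in the knockout libraries (SD, n = 3 each). Muscle genes were present in all 6 libraries too. Over 11 genes they summed to 26327 to 29833 RPM in controls and to 24151 to 26058 RPM in knockouts. The forelimb gene Tbx5 was at 73.9, 79.8 and 53.4 RPM in controls and at 56.4, 53.6 and 47.0 RPM in knockouts. The groups overlapped, but the gene was called lower in knockouts (log2 fold change -0.38, limma adjusted p = 0.0331).

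Of these 10 genes, 1 was called different between control and knockout bone, which does not show that the others were unchanged. Intervals of the fitted fold change ran from 0.681 to 1.14 for Wnt9a and from 1.02 to 1.58 for Wnt4. Wls was the only member that rose by the test, by about 1.16-fold, and no ligand passed it. EdgeR and DESeq2 on the recovered reads also called 0 of the 6 ligands tested, and 1 of them, Wnt4, had an unadjusted p under 0.05 by limma. A total of 9 members reached a mean of 1 RPM and were tested, while Wnt16 did not. Of those 9, 1 was called at an adjusted p under 0.05 (limma, adjusted over all 12846 genes tested), beside 16.7% of all genes tested. Higher calls made up 5.71% of all genes and lower calls 11.0%. With TMM scaling, which corrects for a few abundant genes taking up reads, higher genes were 52.9% of the calls instead of 34.2%, and Wls was again the only member called. Control and knockout values did not overlap for 3 of the 9 (Wls and Wnt4 higher, Wnt5a lower), beside 33.8% of all genes tested, 11.9% higher and 21.9% lower. The share of members that moved was therefore near or below the background by both counts. Fold changes were fitted on log2(RPM + 1), which understates changes of low genes. The median log2 fold change of the 9 was 0.08, beside -0.06 for all genes tested.

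**Figure D1:**
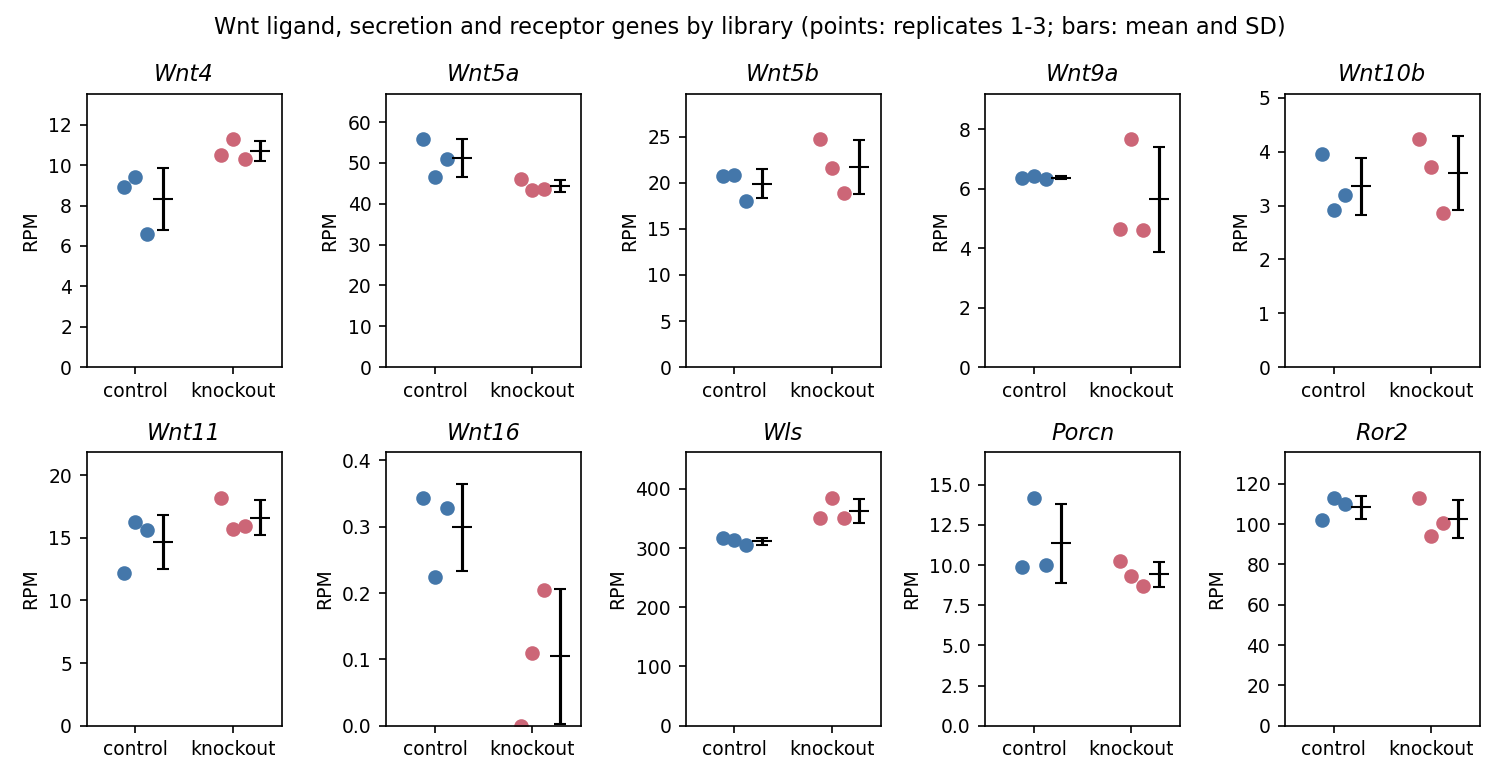
Deposited RPM of the 10 genes in each library, with a linear axis from 0 in every panel; blue points are the 3 controls, red points the 3 knockouts, and the black marks the mean and SD of each group. The Wls knockout values of 351 to 385 RPM all lie above its controls, and the groups overlap for 6 of the 10 genes.

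Among the ligands, Wnt5a had the deepest read support, with 397 to 650 reads per library. This ligand drives limb outgrowth and the ordering of growth plate cartilage, and its gene lies on chromosome 14 from 28504750 to 28527448. It was at 55.8, 46.6 and 50.9 RPM in controls and at 46.2, 43.5 and 43.7 RPM in knockouts. All 3 knockouts were below all 3 controls, but by a gap of only 0.423 RPM between the nearest libraries. The log2 fold change was -0.19 ± 0.10 (SE, adjusted p = 0.185), with a 95% interval of -0.40 to 0.01. A fall to 0.759 of the control level and a level 1.01 times the control thus both lay within the interval. Without control replicate 1 the estimate was -0.13 (limma, adjusted p = 0.488).

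Wnt5b, which is also expressed in growth plate cartilage, lies on chromosome 6 from 119432531 to 119544347. Controls gave 20.7, 20.9 and 18.1 RPM, and knockouts gave 24.7, 21.6 and 18.9 RPM. The groups overlapped, and the 3 knockout libraries spanned 18.9 to 24.7 RPM against 18.1 to 20.9 RPM in controls. Its estimate was a log2 fold change of 0.12, with a 95% interval of -0.14 to 0.38 (limma, adjusted p = 0.560). The Wnt5b estimate was 0.03 without knockout replicate 1, 0.05 without control replicate 3 and 0.21 without knockout replicate 3. Neither Wnt5a nor Wnt5b passed the test, and whether they differed from each other in response was not tested.

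Wnt4 had the greatest estimate of the ligands tested. It is made in developing joints and maturing cartilage, and its gene lies on chromosome 4 from 137277489 to 137299726. Controls were at 8.93, 9.42 and 6.57 RPM and knockouts at 10.5, 11.3 and 10.3 RPM. Every knockout library was above every control, with control replicate 3 the lowest of all. The log2 fold change of 0.34 ± 0.15 (SE) had an unadjusted p of 0.0349 and an adjusted p of 0.126, so it did not pass. Its 95% interval was 0.03 to 0.66, and without control replicate 3 the estimate was 0.20 (limma, adjusted p = 0.423). The counts behind it were low, at 80 to 126 reads per library.

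Wnt9a, a ligand of joint-forming regions, lies on chromosome 11 from 59306928 to 59333552. In controls it was steady at 6.36, 6.43 and 6.32 RPM, whereas knockouts gave 4.66, 7.67 and 4.60 RPM. Knockout replicate 2 was thus above all controls and the other two were below them. The coefficient of variation was 0.843% in controls and 31.1% in knockouts, from 45 to 86 reads per library. Knockout and control differed by a log2 fold change of -0.18, with a 95% interval of -0.55 to 0.19 (limma, adjusted p = 0.529). Without knockout replicate 2 it was -0.39 (limma, adjusted p = 0.172), and without knockout replicate 1 or 3 it was -0.08 or -0.07.

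Wnt11, a ligand that acts largely without beta-catenin, lies on chromosome 7 from 98835112 to 98855195. It was at 12.2, 16.2 and 15.6 RPM in controls and at 18.2, 15.7 and 15.9 RPM in knockouts. Only knockout replicate 1 lay above the control range. For Wnt11 the log2 fold change was 0.17, with a 95% interval of -0.11 to 0.45 (limma, adjusted p = 0.406). Leaving out control replicate 1, the lowest library, gave 0.06, and leaving out knockout replicate 1 gave 0.11.

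Wnt10b, which favours the osteoblast over the adipocyte fate, had the fewest reads of the ligands tested, 28 to 50 per library. Its gene lies on chromosome 15 from 98770712 to 98778150. Controls gave 3.95, 2.92 and 3.20 RPM, and knockouts gave 4.23, 3.73 and 2.86 RPM. The knockout libraries spanned the whole control range, and the log2 fold change was 0.08 with a 95% interval of -0.32 to 0.47 (limma, adjusted p = 0.830). Without knockout replicate 1 the estimate was -0.02, and it ranged up to 0.20 when other libraries were left out.

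Wnt16, known for protecting cortical bone in the adult, was near the detection limit. Its gene lies on chromosome 6 from 22288227 to 22298522. The controls held 4, 3 and 4 reads and the knockouts 0, 1 and 2 reads. All 3 knockouts were below all controls, but 3 reads, the upper limit that a count of 0 allows, is worth 0.254 RPM in knockout replicate 1. That limit is above the 0.224 RPM of control replicate 2. These 2 libraries could therefore not be told apart by their counts, and such limits cover counting error only. The gene was under the 1 RPM filter, so the main test did not include it. In the limma fit without that filter Wnt16 had an unadjusted p under 0.05, but it was not called after adjustment. With so few reads, whether the groups differed stayed undecided.

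Wls, the carrier that Wnt release depends on, was higher in the knockout bones. Its gene lies on chromosome 3 from 159839672 to 159938664. The controls were at 316, 313 and 305 RPM and the knockouts at 351, 385 and 351 RPM, from 3435 to 4193 reads per library. All knockouts were above all controls, with 34.8 RPM between the nearest libraries, and knockout replicate 2 was the highest. The log2 fold change was 0.22 ± 0.07 (SE, limma adjusted p = 0.0431), with a 95% interval of 0.07 to 0.37, or 1.05-fold to 1.29-fold. An exact two-sided permutation test of Wls gave p = 0.1, the smallest that 3 against 3 can give. Of all the genes called, 0.280% had a smaller absolute log2 fold change than Wls, and the median of the calls was 0.42.

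The call of Wls was close to the threshold. The adjusted p by limma was 0.0778 without control replicate 1, 0.112 without control replicate 2 and 0.0960 without control replicate 3. It was 0.0517 without knockout replicate 1, 0.193 without knockout replicate 2 and 0.0468 without knockout replicate 3. Wls also lost its call without a filter on low values (0.0778), with quantile normalization (0.0632) and without a variance trend (0.161). Count tests on the recovered reads called it, with a log2 fold change of 0.28 both by edgeR (adjusted p = 0.0162) and by DESeq2 (adjusted p = 0.00386). The estimate stayed between 0.17 and 0.28 in all 19 alternatives.

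**Figure D2:**
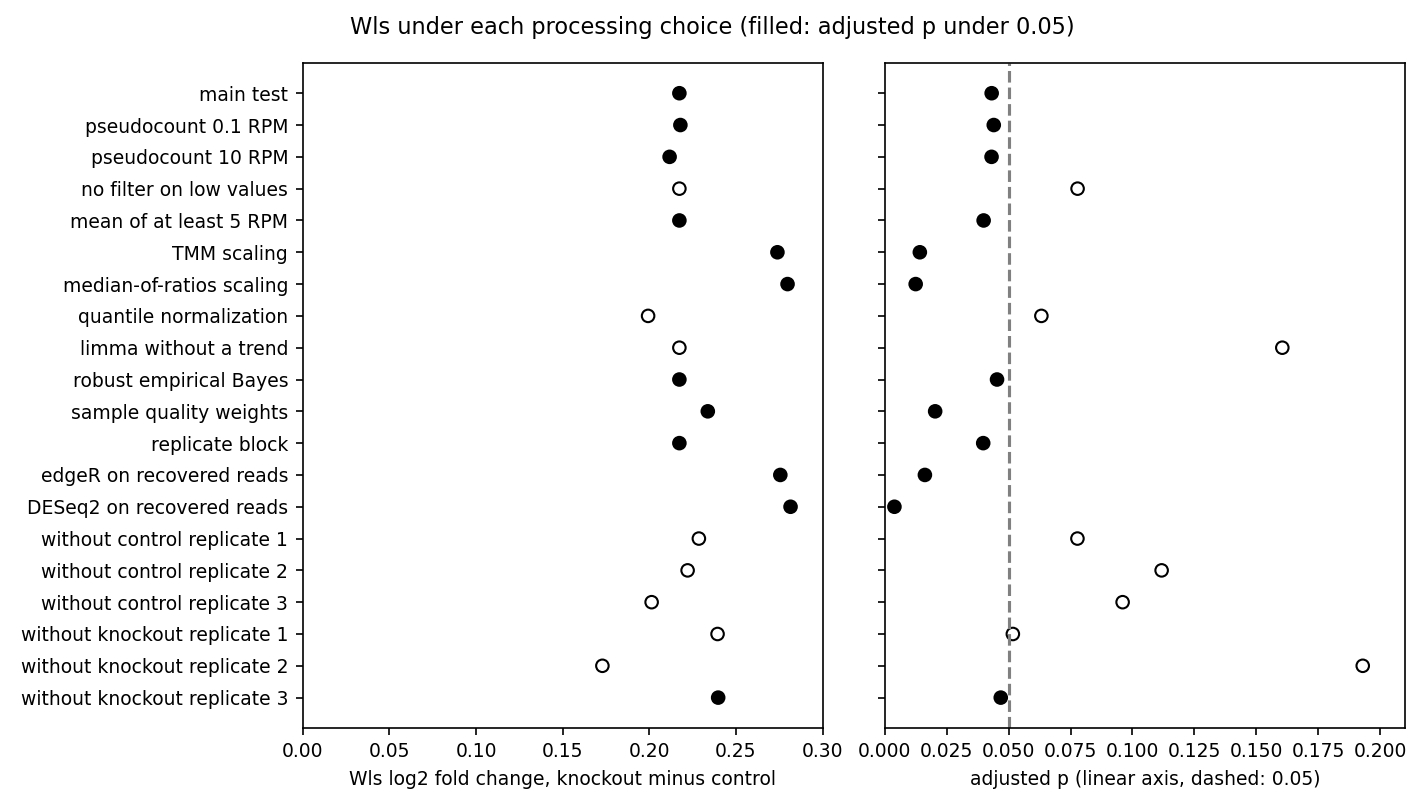
Wls log2 fold change, knockout minus control (left), and its adjusted p on a linear axis (right), for the main test and each alternative; filled points have an adjusted p under 0.05, and the dashed line marks that threshold. Every estimate is above 0, while 8 of the 19 alternatives lie to the right of the threshold.

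Markers of other cell types differed between the groups alongside Wls, and in bulk RNA fewer cells of a type cannot be told apart from less RNA per cell. Summed levels were higher in knockouts, without overlap, for tendon (6 genes, 2308 to 2412 RPM in controls and 2913 to 3322 RPM in knockouts) and for fibroblasts and perichondrium (8 genes, 9156 to 10091 and 11004 to 11517 RPM). They were likewise higher for macrophages (10 genes, 419 to 439 and 512 to 547 RPM) and osteoclasts (10 genes, 889 to 938 and 1227 to 1248 RPM). Osteoblast genes were lower, at 46988 to 50866 RPM in control and 41035 to 45522 RPM in knockout libraries over 10 genes, as were chondrocyte genes at 411 to 416 and 308 to 341 RPM over 10 genes. Among tested members of these lists, 8 of 10 osteoblast genes and 6 of 9 chondrocyte genes fell, beside 11.0% of all genes tested. Those that rose were 2 of 6 tendon, 1 of 8 fibroblast, 4 of 9 macrophage and 3 of 10 osteoclast genes, beside 5.71%. A single member fell in the tendon, macrophage and osteoclast lists, and 2 fell among fibroblast genes. Single abundant genes made up much of the higher sums, Tnmd going from a mean of 1502 to 2257 RPM, Col3a1 from 3410 to 4779 RPM, Lyz2 from 134 to 230 RPM and Mmp9 from 411 to 671 RPM. The median log2 fold change of the tested members was 0.00 for tendon, 0.02 for fibroblasts, -0.27 for macrophages and 0.12 for osteoclasts. Members with a negative estimate were 3 of 6, 4 of 8, 5 of 9 and 3 of 10, so the higher sums do not show a shift of these lists as a whole. None of these 6 lists had a measured member at 0 in all libraries. The part of these shifts in the Wls result was not tested.

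Within the tendon list Tnmd (log2 fold change 0.59) and Scx (0.45) rose and Kera (-0.30) fell, and within the fibroblast list the fibrillar collagen gene Col3a1 (0.49) rose and Pdgfra (-0.39) and Lum (-0.31) fell. The macrophage genes Cd14 (1.47), Lyz2 (0.78), Adgre1 (0.49) and Cd68 (0.48) rose. Csf1r (-0.42), the receptor on which macrophages depend, was the only gene called lower in that list. In the osteoclast list the protease gene Mmp9 (0.71) rose and the calcitonin receptor gene Calcr (-1.13) fell. Among the other lower genes were the parathyroid hormone receptor gene Pth1r (-1.22) and Ibsp (-1.04) in osteoblasts, and the cartilage matrix genes Matn1 (-1.28) and Hapln1 (-0.82). All of these are fitted log2 differences, knockout minus control, past the limma threshold. Epidermal genes, a further possible source of Wnt ligands, were low, and their sum was higher in knockouts. Their 10 genes summed to 22.9 to 23.5 RPM in controls and 33.3 to 35.8 RPM in knockouts, with Dsg3 at 0 in all libraries. Lor (1.53) and Krt1 (1.18) were called higher, 2 of the 6 epidermal genes tested, beside 5.71% of all genes tested. Much of the higher sum was Lor, which went from a mean of 2.69 to 9.65 RPM. The other 4 tested were not called, and 1 of the 6 had a negative estimate. Their median log2 fold change was 0.27, beside -0.06 for all genes tested. Joint interzone genes summed to 218 to 227 RPM in controls and 233 to 266 RPM in knockouts over 6 genes, and Gdf6 (0.60) and Sfrp2 (0.43) rose. Sfrp2 alone went from a mean of 93.5 to 127 RPM. Of these 6 genes 2 were called higher, beside 5.71% of all genes tested, and 4 were not called. Their median log2 fold change was 0.15, beside -0.06 for all genes tested. As 2 of the 6 had a negative estimate, the higher sum does not show a shift of the list as a whole. The part of epidermal or joint cells in the Wnt4 and Wnt9a values was not tested.

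Porcn, the enzyme that acts at the serine codons shown above, did not pass the test. It is an X-linked gene, from 8193848 to 8206525. Controls were at 9.88, 14.2 and 10.02 RPM and knockouts at 10.2, 9.31 and 8.69 RPM. Control replicate 2 stood above the other 5 libraries, which lay between 8.69 and 10.2 RPM. The log2 fold change was -0.23 ± 0.15 (SE), with a 95% interval of -0.55 to 0.09 (limma, adjusted p = 0.321). Without control replicate 2 it was -0.07.

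Ror2, the receptor tyrosine kinase through which Wnt5a acts on cartilage and bone, lies on chromosome 13 from 53109312 to 53286124. It was at 102, 113 and 109.9 RPM in controls and at 113, 94.1 and 100.5 RPM in knockouts. The groups overlapped over most of their range. Its log2 fold change was -0.08, with a 95% interval of -0.26 to 0.10 (limma, adjusted p = 0.566), so at most a fall to 0.832 or a rise to 1.07 of the control level lay within the interval. Leaving out a library gave estimates of -0.15 (without knockout replicate 1) to -0.02 (without knockout replicate 2). Ror2 was among the more tightly estimated members, with 859 to 1513 reads per library.

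**Figure D3:**
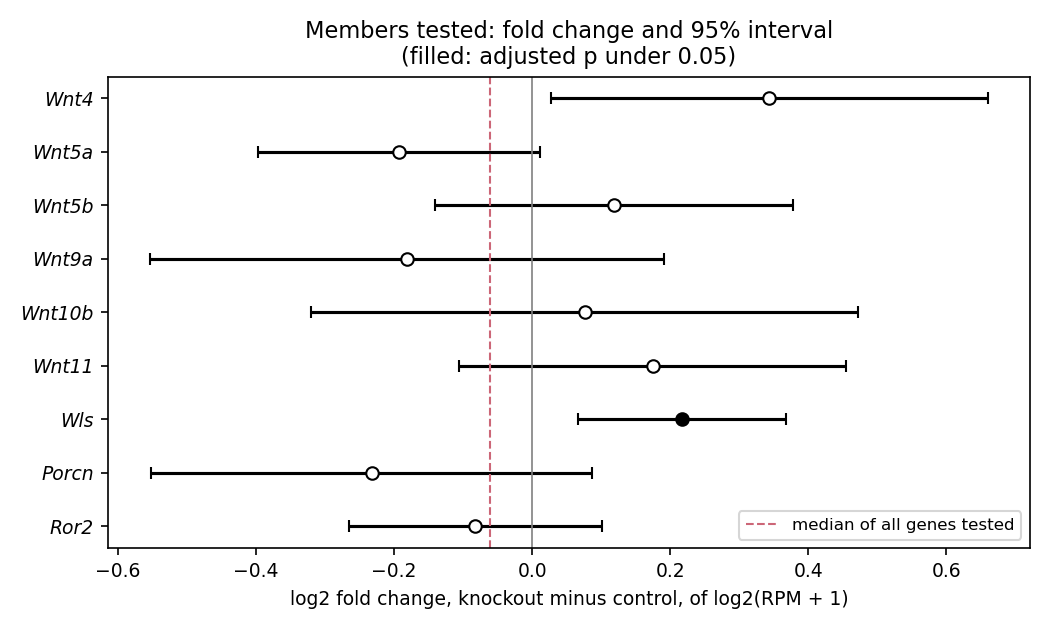
Log2 fold change, knockout minus control on the log2(RPM + 1) scale, of the 9 members tested, with 95% intervals that are not adjusted for the number of genes; the filled point has an adjusted p under 0.05, and the dashed line is the median of all genes tested. The intervals of Wls and Wnt4 lie above 0, and that of Wnt5a ends at 0.01.

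Levels of different members were not ranked, because each gene is read by its own amplicon and amplicons differ in how well they amplify. By the likeness of its pattern over the 6 libraries, Wls was closest to 1700011I03Rik (Pearson r = 0.996), Dok3 (0.995) and Kpna4 (0.992). These points fall into the 2 genotype groups, and 319 of the 12845 other genes tested reached an r of 0.9 with Wls.

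Upstream sequence was available from RefSeq (GRCm38.p6) for 8 of the 10 members, all but Wnt5a and Porcn. The 250 bases before each start site were searched for the STAT binding motif TTCNNNGAA, which reads the same on both strands. It was found at 7.02% of 32851 promoters in the genome. Among the members a single match was found, at an internal start site of Wnt5b on the minus strand of chromosome 6, 159 bases before that start.
Wnt5b: acagcaggccTTCCTGGAAagtcctgtga
The motif is in capitals, and the window is chr6:119467352-119467380. The match is a description of the sequence, and Wnt5b itself did not pass the test.

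Among the other Wnt genes of the panel, no tested ligand and no tested Frizzled or LRP receptor was called. Of 12 further ligands only Wnt2 and Wnt2b reached 1 RPM. Wnt2 averaged 9.40 ± 1.60 RPM in the control and 11.2 ± 0.771 RPM in the knockout libraries (SD, n = 3 each), and Wnt2b averaged 7.20 ± 0.460 and 5.57 ± 0.852 RPM. Neither passed the test, and neither had an unadjusted p under 0.05. Wnt7b reached at most 0.972 RPM, and Wnt8b had no read in any library, which allows up to 0.329 RPM in the shallowest. Among Frizzled and LRP receptors 0 of 9 tested genes were called by limma, edgeR or DESeq2, and 1 had an unadjusted p under 0.05 by limma. Of all 12846 genes tested, 16.7% were called by limma, 15.4% by edgeR and 1762 genes by DESeq2. The beta-catenin co-receptor Lrp6 was at 90.2 ± 6.16 and 89.3 ± 4.29 RPM. Fzd2 is listed at 0 in all libraries.

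Of 14 tested genes for non-canonical receptors and planar cell polarity, 2 fell and none rose, a share near the 11.0% of all tested genes that were called lower. Vangl2, a core polarity protein that acts with Wnt5a and Ror2, was at 19.4, 17.2 and 13.3 RPM in controls and at 8.30, 9.42 and 8.99 RPM in knockouts. All knockouts were below all controls, and the log2 fold change was -0.82 ± 0.15 (SE, limma adjusted p = 5.85e-04). Dvl1, a cytoplasmic relay shared by all Wnt branches, was at 38.7, 35.6 and 37.3 RPM in controls and at 24.7, 32.0 and 24.7 RPM in knockouts (log2 fold change -0.45, limma adjusted p = 0.00993). Both calls held in each of the 6 fits that left out a library, and Dvl1 was not called without a variance trend (adjusted p = 0.0550). The related receptors Ror1 and Ryk differed by -0.03 and 0.07 on the log2 scale, and neither passed.

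In the list for Wnt trafficking and extracellular handling, 1 of 14 tested genes rose and none fell. Of all genes tested, 5.71% were called higher and 11.0% lower. The gene that rose was the glypican gene Gpc6, for a cell surface proteoglycan. It was at 89.3, 102 and 91.5 RPM in the controls and at 110.3, 113 and 119 RPM in the knockouts (log2 fold change 0.27, limma adjusted p = 0.0324). Its call was lost without control replicate 1 (0.118), control replicate 3 (0.0791), knockout replicate 2 (0.0820) or knockout replicate 3 (0.0911), where the values are adjusted p, and also without a filter (0.0527) or a variance trend (0.115). In the R-spondin list, of receptors and ligands that amplify Wnt signals, 6 of 6 tested genes had a negative estimate. Their median log2 fold change was -0.24, beside -0.06 for all genes tested. Of the 6, 1 was called lower, beside 11.0% of all genes tested. This was the receptor gene Lgr6, from 10.3 ± 0.173 to 7.14 ± 0.115 RPM (SD, n = 3 each, limma adjusted p = 0.0244). Lgr6 lost its call without control replicate 1 (0.0644), control replicate 2 (0.0859), knockout replicate 1 (0.0538) or knockout replicate 2 (0.0642), and also without a filter (0.0812), with quantile normalization (0.0591) and by DESeq2 (0.0883).

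Of 13 tested targets of beta-catenin, 2 fell and none rose, beside 11.0% lower and 5.71% higher among all genes tested. Their median log2 fold change was -0.25, beside -0.06 for all genes tested. The Wnt antagonist gene Dkk1 was at 24.4, 23.5 and 22.8 RPM in controls and at 17.6, 17.0 and 15.9 RPM in knockouts. The membrane inhibitor gene Apcdd1 was at 25.9, 25.7 and 28.2 RPM in controls and at 20.0, 19.3 and 20.9 RPM in knockouts. The groups did not overlap for either gene, and the adjusted p by limma was 0.00948 for Dkk1 and 0.0197 for Apcdd1. Apcdd1 was not called without control replicate 2 (0.0539), control replicate 3 (0.0652) or knockout replicate 2 (0.0742), nor with quantile normalization (0.0835) or by DESeq2 (0.0631). The feedback gene Axin2 was at 28.1 ± 0.864 and 24.0 ± 1.24 RPM (SD, n = 3 each) and did not pass (adjusted p = 0.180). In all, 6 of 55 tested genes in the 6 further Wnt lists were called, beside 16.7% of all genes tested.

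**Figure D4:**
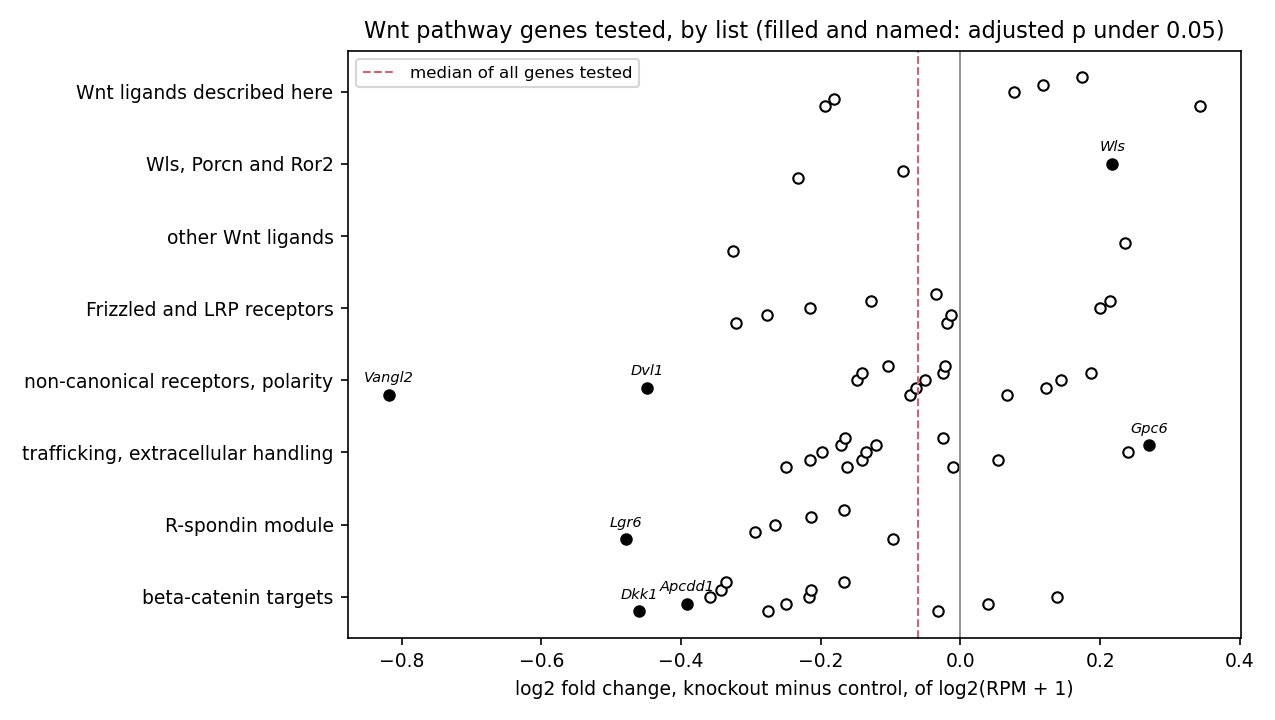
Log2 fold change, knockout minus control on the log2(RPM + 1) scale, of each tested gene in the Wnt pathway lists; each point is a gene, filled and named where its adjusted p is under 0.05, and the dashed line is the median of all genes tested. Vangl2 lies farthest from 0 at -0.82, and the Wnt ligands lie between -0.33 and 0.34.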

How the data were processed

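Per the labels' protocols, RNA was isolated with Trizol and sequenced with an Ion AmpliSeq panel for mouse genes, which reads 1 short amplicon for each gene. The sources used here name no aligner, counter or genome build. RPM values were what the authors deposited (reads scaled to the library total). Dividing by the step of each column gave whole reads, within 0.1 read, for 100% of values above 0. Symbols that had become dates (27) were read back from amplicon names.

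The main test used limma 3.58.1 in R 4.3.3 on log2(RPM + 1), which understates changes of low genes. It took amplicons averaging 1 RPM or more and used an empirical Bayes step with a trend. Benjamini-Hochberg adjustment of the two-sided p-values covered every gene tested, and the threshold was 0.05. edgeR 4.0.16 and DESeq2 1.42.0 were run on the recovered reads as alternatives. Whether replicates were separate embryos is not in the labels, so the spread behind each p-value is that between samples and may be technical. Within groups, library pairs had a chi-square of 4.33 to 7.38 for each degree of freedom, above counting noise. Simulated counts (12856 genes tested) gave limma a recovery of 14% at 1.25-fold, 62% at 1.5-fold and 92% at 2-fold. The simulation gave every gene the same dispersion and far fewer changed genes, with 137 calls beside 2142 in the data. Its recovery is therefore not that of the test reported here.

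The members and gene lists were chosen with earlier results of these data known. The genes named were all members, at most 4 called genes from each list, Stat3, Tbx5 and the closest patterns to Wls. From the macrophage list Csf1r was named besides those 4, as its only gene called lower. Genes of other lists that did not pass (Wnt2, Wnt2b, Wnt7b, Wnt8b, Lrp6, Fzd2, Ror1, Ryk, Axin2 and Dsg3) were named after their values were seen. Marker lists for skeletal muscle, hypertrophic cartilage, endothelium and nerve were measured too. They had 3 of 11, 4 of 6, 2 of 9 and 0 of 8 tested genes lower and none higher. Of all genes tested, 11.0% were called lower and 5.71% higher. Hypertrophic cartilage genes summed to 984 to 1008 RPM in controls and 668 to 732 RPM in knockouts over 7 genes. For nerve, edgeR and DESeq2 also called 0, and 1 gene had an unadjusted p under 0.05 by limma.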

Additional observations from a re-analysis of the deposited data

How the results depend on the processing

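Alternatives were other pseudocounts, filters, scalings and variance models, count tests, the replicate number as a block, and leaving out each library. Of the 10 members, 0 were called by limma without a filter on low values, with quantile normalization and without a variance trend. In these fits 3 (Wls, Wnt5a and Wnt16), 2 and 2 members had an unadjusted p under 0.05. By edgeR and DESeq2 1 member was called. Leaving out a library gave 0 to 1 called members, 3 to 6 called genes of the other Wnt lists (3 without knockout replicate 2), and 1173 to 2019 called genes in all. Over all genes the calls numbered 2142, and 1392 without a filter and 995 without a variance trend. They numbered 1229 without control replicate 1, 1173 without control replicate 2 and 1322 without knockout replicate 2. The cause was not tested. Wnt10b ranged from -0.02 to 0.20 on the log2 scale when a library was left out, and it was below 0 only without knockout replicate 1, at -0.021 (adjusted p = 0.962). The other 8 members tested kept their sign in every alternative.

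The replicate numbers are shared by the groups, and same-numbered libraries deviated together with correlations of 0.01, -0.02 and 0.11. Pairs with different numbers ranged from -0.10 to 0.10. With 3 libraries in each group these correlations cannot decide whether same-numbered libraries share more than a number. With the replicate block Wls had a log2 fold change of 0.22 (adjusted p = 0.0397), 1 member was called, 7 genes of the other Wnt lists were called and 2462 genes in all. Depth limits Wnt16, Wnt10b and Wnt9a most, which had at most 86 reads in any library.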
